A study of Papio anubis with 24 samples.

Results

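The results below describe the 4 mature miRNAs of the miR-143 and miR-145 hairpins in baboon endometriosis: hsa-miR-143-3p, hsa-miR-143-5p, hsa-miR-145-5p and hsa-miR-145-3p, named for their human counterparts and mostly written without the prefix hsa. They were taken by name from 2656 mature miRNA names in the count table, and each of the 4 had a single precursor row. Small RNA was sequenced from 24 libraries of olive baboons (Papio anubis), a primate that menstruates and develops endometriosis. From each of 12 animals there was an endometriotic lesion and the eutopic endometrium, the lining of the uterus itself. Menstrual tissue had been placed in the peritoneal cavity of 8 animals to induce the disease, and both tissues were taken 15 months later. The other 4 animals had spontaneous disease, whose onset and duration the labels do not give. According to the study's account, the baboon lesions were mostly peritoneal, and no group came from animals without endometriosis. Reads were assigned to human miRNAs, so a baboon miRNA that differs from its human counterpart could be undercounted in every library alike.

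miR-143 and miR-145 lie next to each other in vertebrate genomes and are processed from a shared primary transcript, which serum response factor and myocardin drive in smooth muscle. Both are known for promoting the contractile state of smooth muscle cells in mouse, and they are abundant in vascular and uterine smooth muscle and in other contractile mesenchymal cells, while epithelium holds little of them. Each hairpin gives a strand from its 5′ arm and another from its 3′ arm. miR-143-3p and miR-145-5p are the strands usually loaded into the silencing complex, and miR-143-5p and miR-145-3p are their less abundant partners.

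Libraries held 2592999 to 7573913 miRNA counts and 603 to 751 detected miRNAs. A count of 3 corresponded to 0.396 to 1.16 CPM, the count scaled to a common library total, and all 4 members lay far above it in every library. The 95% Wilson interval of a library's share was at most 0.0522 percentage points to either side for miR-143-3p, whereas for miR-143-5p it was 5.15% to 20.9% of the value, because that strand had only 89 to 1451 counts. These intervals cover counting error only. The eutopic endometrium of animal PA7539 was the shallowest library and stood apart from the others. Over 34 hairpins with at least 50 counts of both strands in every library, its strand ratios had a median absolute deviation of 0.712 on the log2 scale, the highest of the 24 libraries, and the next highest was 0.468. Results that rest on it are given with and without it. In these bulk samples, fewer cells of a type and less RNA per cell cannot be told apart.

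hsa-miR-143-3p was the largest single component of many lesion libraries. In induced disease it made up 4.88% to 12.3% of the counts of the eutopic endometria (median 9.01%) and 17.2% to 71.7% of those of the lesions (median 43.1%). Every induced lesion lay above every induced eutopic endometrium. How many of all miRNAs separated by share in this way was not counted, so this is not read as particular to miR-143-3p. It was the most abundant miRNA in 7 of 8 induced lesions and in 0 of 8 induced eutopic endometria, where it ranked between 2 and 4.

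In spontaneous disease the shares of miR-143-3p overlapped between the tissues. Its eutopic share was 31.0% in PA5655, 24.9% in PA6303, 10.1% in PA6627 and 10.7% in PA6762. The lesion share was 49.9% in PA5655, 24.5% in PA6303, 13.9% in PA6627 and 48.9% in PA6762. PA6303 was the only animal of the 12 whose lesion was not higher than its eutopic endometrium, and its tissues were nearly level. The lesion of PA6303 also had the highest summed level of 6 leukocyte miRNAs of the 24 libraries, 12419 CPM after scaling between libraries, against 979 in its eutopic endometrium and 3936 in the next highest library, the PA6627 lesion. The part of these markers in the results of PA6303 was not tested. The eutopic endometria of PA5655 and PA6303 lay above every induced eutopic endometrium.

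hsa-miR-145-5p, the main strand of its hairpin, was far less abundant. Its share was 0.0331% to 0.161% in induced eutopic endometria (median 0.0815%) and 0.112% to 0.710% in induced lesions (median 0.321%), so the ranges overlapped on this scale. In spontaneous eutopic endometria it was 0.170% in PA5655, 0.131% in PA6303, 0.0661% in PA6627 and 0.120% in PA6762. In the lesions of the same animals it was 0.386%, 0.129%, 0.187% and 0.543%. As for miR-143-3p, PA6762 had the largest step between tissues and PA6303 almost none. The median rank of miR-145-5p among the miRNAs of a library was 80 in induced eutopic endometria and 28 in induced lesions.

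The partner strands followed the same layout at lower levels. hsa-miR-145-3p made up 0.0106% to 0.0353% of counts in induced eutopic endometria (median 0.0251%) and 0.0492% to 0.189% in induced lesions (median 0.103%). In spontaneous disease miR-145-3p was 0.0871%, 0.0770%, 0.0216% and 0.0318% in the eutopic endometria of PA5655, PA6303, PA6627 and PA6762, and 0.137%, 0.0562%, 0.0299% and 0.159% in their lesions. hsa-miR-143-5p, the rarest of the 4, had 91 to 254 counts in induced eutopic endometria (median 133.5) and 318 to 1451 in induced lesions (median 567). For both strands the induced lesions lay above all induced eutopic endometria as shares of the library, and PA6303 again went the other way from the other spontaneous animals. Here too, the number of all miRNAs that separated by share was not counted.

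**Figure D1:**
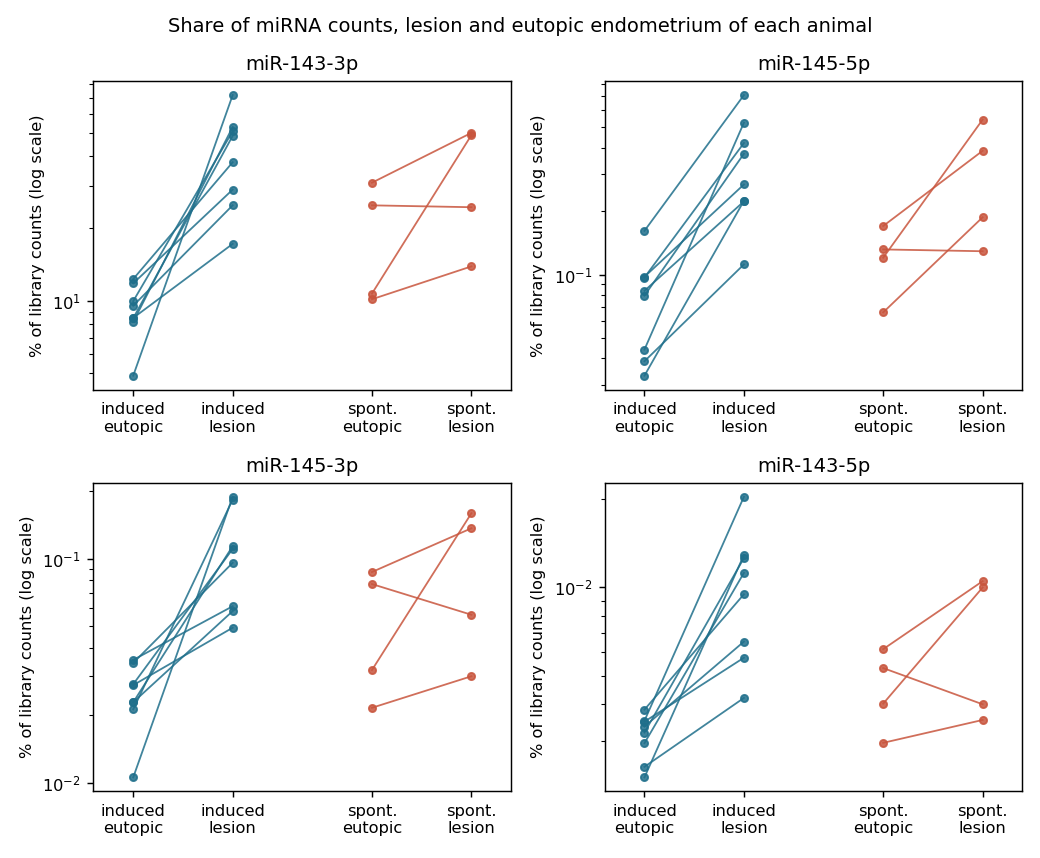
Share of each library's miRNA counts (percent, log axis) taken by the 4 mature miRNAs, with a point for every library and a line joining the tissues of 1 animal. Induced animals (n = 8) are on the left of each panel and spontaneous animals (n = 4) on the right. The miR-143-3p lines of the induced animals run from 4.88% to 12.3% in eutopic endometrium up to 17.2% to 71.7% in lesions, while the line of spontaneous animal PA6303 is flat at 24.9% and 24.5%.

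The first comparison asked how the lesion differs from the eutopic endometrium of the same animal. Levels were compared in edgeR's quasi-likelihood model with the animal as a block and trimmed mean of M values (TMM) scaling, with p-values adjusted by the Benjamini-Hochberg method over all miRNAs tested. This scaling sets libraries level over most miRNAs. Where miR-143-3p takes much of a library, the scaling raises all fitted levels there. The scaled level of miR-143-3p in the PA7539 lesion even exceeds the total to which it is scaled. Levels of the members are therefore given as shares, and scaled values serve their differences and coupling. Sums of marker miRNAs are scaled values and are raised in the same way.

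All 4 members were higher in induced lesions, in 8 of 8 animals each, and after scaling none of the 4 overlapped between the tissues. How many of all miRNAs tested separated in this way was not counted, so neither trait can be read as particular to the members. Across the 507 miRNAs tested, 43.8% were called in either direction and 20.7% were called higher, so a call by itself was common in this comparison. miR-145-5p rose by 3.13 on the log2 scale (SE 0.38, 8.73-fold, 95% interval 2.30 to 3.96, edgeR adjusted p = 2.60e-04). miR-143-3p rose by 3.01 (SE 0.49, 8.03-fold, interval 1.93 to 4.08, edgeR adjusted p = 0.00119). Their partner strands rose as well, miR-145-3p by 2.89 (SE 0.54, edgeR adjusted p = 0.00220) and miR-143-5p by 2.55 (SE 0.41, edgeR adjusted p = 0.00119). Ordered by size of increase, the members were at positions 12 to 18 of the 507, beside a median log2 fold change of −0.14 over all of them.

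The size of the step varied widely between animals. For miR-143-3p the scaled lesion level was 2.52 times the eutopic level in PA7254 and 64.0 times in PA7539, with a median of 6.99 over the 8 induced animals. For miR-145-5p the lowest was again PA7254 at 3.57 times, and the highest was PA7524 at 29.8 times. For miR-145-3p the range was 2.23 to 77.7 times, and for miR-143-5p 2.13 to 25.2 times. Without PA7539 the fitted log2 fold changes were 2.66 for miR-143-3p, 2.95 for miR-145-5p, 2.51 for miR-145-3p and 2.27 for miR-143-5p, and all 4 passed the test.

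The increases were smaller when libraries were scaled by their totals alone, which moved the median of all miRNAs to −1.10. miR-143-3p was then higher by 2.08, miR-145-5p by 2.14, miR-145-3p by 1.97 and miR-143-5p by 1.59 on the log2 scale, and each still passed. On this scaling 64.5% of the 507 miRNAs were called, and 10.1% of these calls were increases, against 47.3% with TMM. As plain shares, miR-143-3p was higher by a mean of 2.10 on the log2 scale, and the two-sided exact sign-flip test gave p = 0.00781, the smallest that 8 pairs allow.

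In spontaneous disease the same comparison of 4 pairs called 0.206% of 485 miRNAs, namely miR-451a, a miRNA of red cells that was looked up after the count was seen, and no member. An unadjusted p under 0.05 was reached by 90 miRNAs, and edgeR-robust and DESeq2 each called 45. The fitted log2 differences were 1.75 for miR-145-5p (interval 0.36 to 3.14, edgeR adjusted p = 0.219), 1.30 for miR-143-3p (−0.13 to 2.73, edgeR adjusted p = 0.275), 1.21 for miR-145-3p (−0.42 to 2.83, edgeR adjusted p = 0.351) and 1.02 for miR-143-5p (−0.26 to 2.31, edgeR adjusted p = 0.324). Each member was higher in the lesion of 3 of 4 animals. The scaled ratio of lesion to eutopic endometrium for miR-143-3p was 15.3 in PA6762, 1.92 in PA5655, 1.72 in PA6627 and 0.973 in PA6303. PA6762 carried much of the difference, since without it the miR-143-3p estimate was 0.57 and that of miR-145-5p 1.09. Leaving out other animals raised the estimates, up to 1.72 for miR-143-3p and 2.28 for miR-145-5p. With 4 pairs an exact sign-flip test cannot go below 0.125, and for the share of miR-143-3p it gave p = 0.25. The call for miR-145-5p depended on the model: edgeR-robust gave 1.75 (adjusted p = 0.0301) and DESeq2 gave 1.78 (adjusted p = 0.0277).

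Over all 12 pairs, which include the induced animals above, 52.8% of 527 miRNAs were called, 25.6% as higher and 27.1% as lower. The members were higher in 11 of 12 lesions. The log2 fold changes were 2.70 for miR-145-5p (SE 0.40, edgeR adjusted p = 2.91e-04), 2.48 for miR-143-3p (SE 0.48, edgeR adjusted p = 8.79e-04), 2.37 for miR-145-3p (SE 0.52, edgeR adjusted p = 0.00194) and 2.07 for miR-143-5p (SE 0.41, edgeR adjusted p = 0.00101). No member lost its call in this comparison, or in that of the induced animals, when any 1 animal was left out or when the scaling, filter, counting or model was changed.

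**Figure D2:**
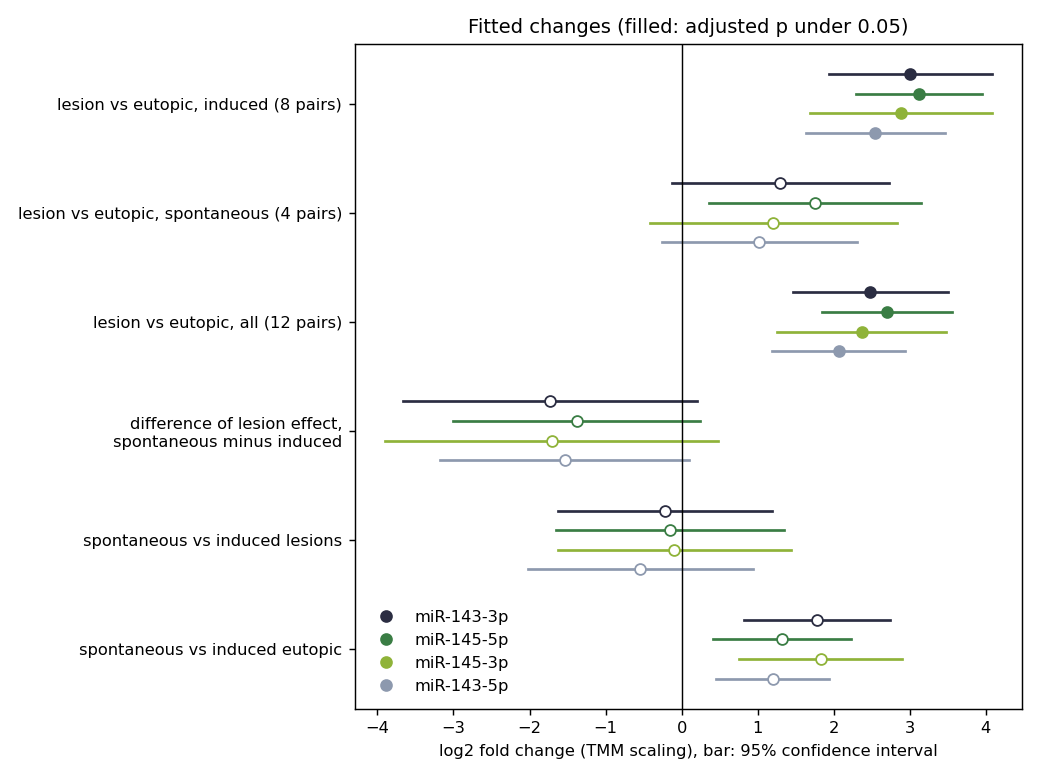
Fitted log2 fold changes (x axis, TMM scaling) of the 4 members in 6 comparisons, with bars for 95% confidence intervals and filled points where the adjusted p of edgeR's quasi-likelihood test was under 0.05. The points of the induced and the combined comparison are filled and lie between 2.07 and 3.13, and the intervals of the difference between both diseases all include 0.

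Whether the lesion effect differed between both diseases was tested directly. The step from eutopic endometrium to lesion was smaller in spontaneous disease by 1.74 on the log2 scale for miR-143-3p (interval of the difference −3.67 to 0.20), and the differences were −1.71 for miR-145-3p, −1.54 for miR-143-5p and −1.38 for miR-145-5p. None passed (edgeR adjusted p = 0.956 for each). In this test 0% of 527 miRNAs were called, while 16 had an unadjusted p under 0.05 and edgeR-robust and DESeq2 called 3 each, none of them a member.

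Between the lesions of both diseases no difference passed the test, and the intervals were wide. Spontaneous lesions differed from induced lesions by −0.22 for miR-143-3p (interval −1.62 to 1.18), −0.54 for miR-143-5p, −0.15 for miR-145-5p and −0.09 for miR-145-3p, with edgeR adjusted p-values of 0.980 to 0.994. Of 467 miRNAs 0% were called, 37 had an unadjusted p under 0.05, and edgeR-robust called 7 and DESeq2 3, without a member among them. The sign of 3 of these small differences turned when PA7539 was left out, to 0.15 for miR-143-3p, 0.32 for miR-145-5p and 0.27 for miR-145-3p. PA7539 was not the only animal that mattered. With each animal left out in turn, the result for these 3 stayed the same in 10, 9 and 8 of 12 fits.

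The eutopic endometria differed more. Spontaneous minus induced, the log2 difference was 1.78 for miR-143-3p (SE 0.45, interval 0.82 to 2.74, edgeR adjusted p = 0.147), 1.83 for miR-145-3p (SE 0.50, interval 0.76 to 2.90, edgeR adjusted p = 0.167), 1.20 for miR-143-5p (edgeR adjusted p = 0.167) and 1.32 for miR-145-5p (edgeR adjusted p = 0.274). In this comparison 0% of 507 miRNAs were called and 54 had an unadjusted p under 0.05, among which miR-143-3p stood at position 4 by p-value. The call depended on the model and on single animals. edgeR-robust (1.63, adjusted p = 0.00401) and DESeq2 (1.82, adjusted p = 0.0308) called miR-143-3p, and both also called miR-145-3p, at 1.72 (adjusted p = 0.0119) and 1.87 (adjusted p = 0.0407), among 11 and 4 miRNAs called in all. In the quasi-likelihood model miR-143-3p passed at 2.09 when either PA6627 (edgeR adjusted p = 0.0423) or PA6762 (edgeR adjusted p = 0.0244) was left out, and so did miR-145-3p, at 2.17 and 2.13. miR-143-5p passed at 1.48 without PA6627. As plain shares, miR-143-3p was higher in spontaneous eutopic endometria by 0.94 on the log2 scale (two-sided exact permutation p = 0.0202, 1 of 24 tests of shares, unadjusted). This rested on PA5655 and PA6303, since the exact p was 0.0849 without the former and 0.0727 without the latter. The comparisons between diseases use the same libraries as those between tissues.

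Strand use within each hairpin was compared as a ratio of counts within a library, which no scaling affects. There were 1382 to 6117 counts of miR-143-3p for each count of miR-143-5p, with a median of 3793 over the 24 libraries. The log2 ratio was higher in lesions in 11 of 12 animals, by a mean of 0.46 (two-sided exact sign-flip p = 0.00146, adjusted p = 0.0308 over 21 tests of ratios). In induced animals alone it was higher in 8 of 8 by 0.51 (exact p = 0.00781, adjusted p = 0.0820), and by 0.39 without PA7539. In spontaneous animals it was higher in 3 of 4, by 0.35. The ratio in the eutopic endometrium of PA7539 was 1382 and the lowest of all, and the other eutopic libraries had 2658 to 5022.

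The strands of miR-145 were far closer to each other in abundance. miR-145-5p was 1.42 to 15.2 times as abundant as miR-145-3p, with a median of 2.96. The value of 15.2 belonged to the eutopic endometrium of PA7539, and without that library the range ended at 6.26, in the lesion of PA6627. The lesion exceeded the eutopic endometrium in 10 of 12 animals, by a mean of 0.25 on the log2 scale (exact sign-flip p = 0.306, adjusted p = 0.804). Without PA7539 the mean was 0.46 with an unadjusted exact p of 0.00391, so that 1 library decided this result. Over the 34 hairpins the strand ratio of miR-145 had the third widest spread between libraries (SD 0.73 on the log2 scale), and that of miR-143 (SD 0.43) was close to the median of 0.45. Without the eutopic endometrium of PA7539 the SD was 0.54 for miR-145 and 0.31 for miR-143. The rank and the median were not computed without that library, so the wide spread of miR-145 rests in part on it. In the eutopic endometrium of PA7539 the strand ratio of miR-145 deviated by 2.72 from its norm, the most of the 34 hairpins, and that of miR-143 by 1.21, which ranked 12.

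**Figure D3:**
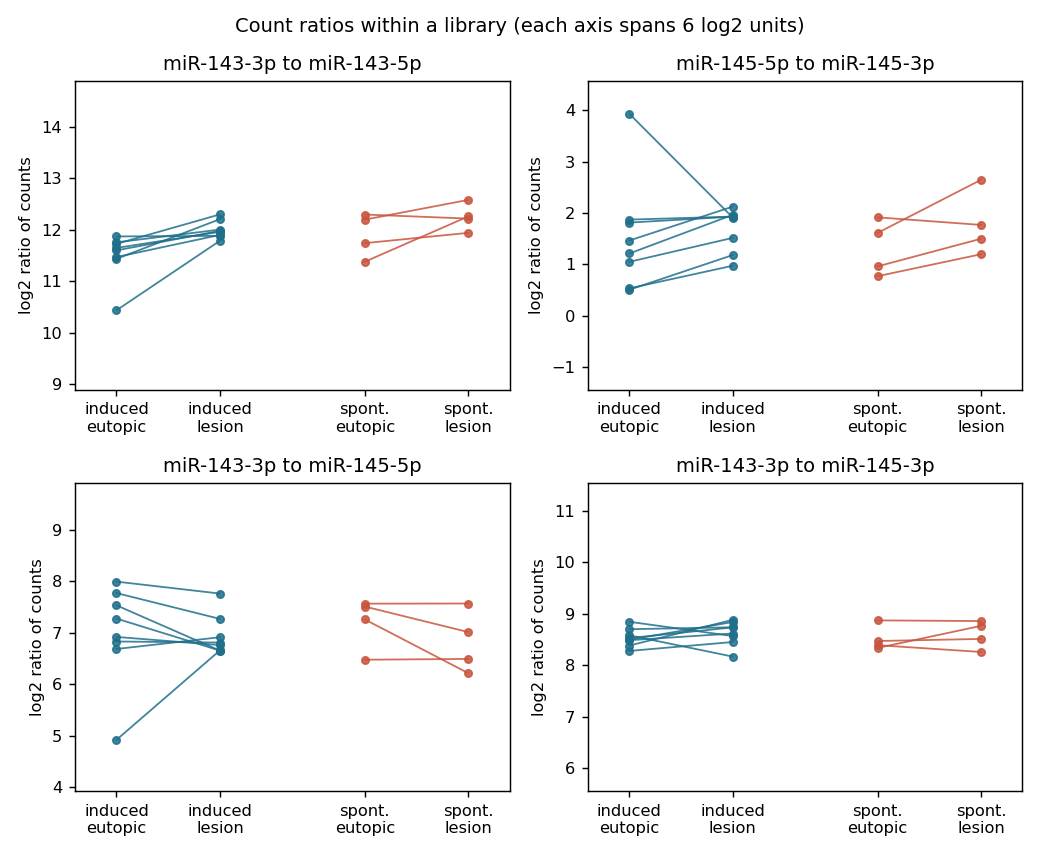
Log2 ratios of counts within a library for 4 pairs of members, with lines joining the tissues of 1 animal, induced on the left (n = 8) and spontaneous on the right (n = 4). All panels span the same number of log2 units, so the narrow band of miR-143-3p to miR-145-3p (SD 0.21) can be read against miR-143-3p to miR-145-5p (SD 0.65). Without the eutopic endometrium of PA7539 these SDs were 0.21 and 0.49. The eutopic endometrium of PA7539 lies at 10.43, 3.93 and 4.92 in the first 3 panels, far from the other induced eutopic libraries.

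The ratio between the hairpins differed by which strand of miR-145 was counted. miR-143-3p exceeded miR-145-5p 30.3 to 255 times, with a median of 121. The mean log2 difference between lesion and eutopic endometrium was −0.16 over 12 animals (exact sign-flip p = 0.459) and −0.06 over the 8 induced animals (exact p = 0.875). Without PA7539 it was −0.34 over 11 animals, with an unadjusted exact sign-flip p of 0.0215. Against miR-145-3p, a comparison chosen after the values were seen, the ratio ran only from 288 to 473 across all 24 libraries (median 375, SD 0.21 on the log2 scale), although the share of miR-143-3p itself ran from 4.88% to 71.7%. The mean difference between tissues was 0.09 (exact sign-flip p = 0.298). Among the 298 miRNAs whose log2 CPM averaged 3 or more, miR-145-3p had the steadiest ratio to miR-143-3p, followed by miR-143-5p (SD 0.43) and miR-145-5p (SD 0.65). The next were miR-99a-5p at 0.69 and miR-28-5p at 0.74, and the median of all was 1.83. Without the eutopic endometrium of PA7539 the SD was 0.21 for miR-145-3p, 0.31 for miR-143-5p and 0.49 for miR-145-5p. The other miRNAs were not computed without it.

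The coupling of both main strands across animals was tested in 6 relations of log2 scaled CPM, in which the points of a library share its scaling factor. In the 12 lesions, miR-143-3p and miR-145-5p were correlated with Pearson's r = 0.93 (permutation p = 1e-05, the smallest that 100000 permutations can give, adjusted p = 6.00e-05) and Spearman's rho = 0.93 (permutation p = 6.00e-05, adjusted p = 1.80e-04). Without the 2 lesions farthest from the median, PA6627 and PA7254, r was 0.92. As log2 shares of the library, which carry no scaling factor, r was 0.85. Within the 8 induced lesions r was 0.95 (exact permutation p = 4.22e-04, adjusted p = 8.43e-04) and rho 0.93 (exact permutation p = 0.00223), and 0.86 was left for r without PA7254 and PA7539.

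The differences between lesion and eutopic endometrium were correlated as well, with r = 0.91 (permutation p = 6.00e-05, adjusted p = 1.80e-04) and rho = 0.97 (permutation p = 1e-05) over 12 animals, and r = 0.94 without PA7539 and PA6303. Within the 8 induced animals r was 0.85 (exact permutation p = 0.00538, adjusted p = 0.00807) and rho 0.95 (exact permutation p = 0.00114), and 0.94 for r without PA7539 and PA7254. As shares, r in the 8 animals was 0.57 (exact permutation p = 0.144). Per counts of miRNAs other than the members, which use no TMM factor either, r was 0.84 (exact permutation p = 0.00687) and rho 0.95. The value of r thus depended on which total the counts were set against.

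In eutopic endometrium the relation was less firm. Over 12 animals r was 0.71 (permutation p = 0.0109, adjusted p = 0.0131) and rho 0.54 (permutation p = 0.0765). Without PA5655 and PA6303 r was −0.08, with PA7539 still among the 10 animals. Without PA7539 alone, chosen after the values were seen, r was 0.89 (permutation p = 4.30e-04) and rho 0.81 (permutation p = 0.00407). Within the 8 induced animals r was −0.10 (exact permutation p = 0.840) and rho 0.14 (exact permutation p = 0.752). Here PA7539 went against the rest, and r was 0.69 without it (exact permutation p = 0.0929) and 0.56 without PA7539 and PA7457. With miR-145-3p in place of miR-145-5p, chosen after the values were seen, r was 0.99 in the same 8 eutopic endometria and 0.98 to 0.99 in all 6 relations.

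**Figure D4:**
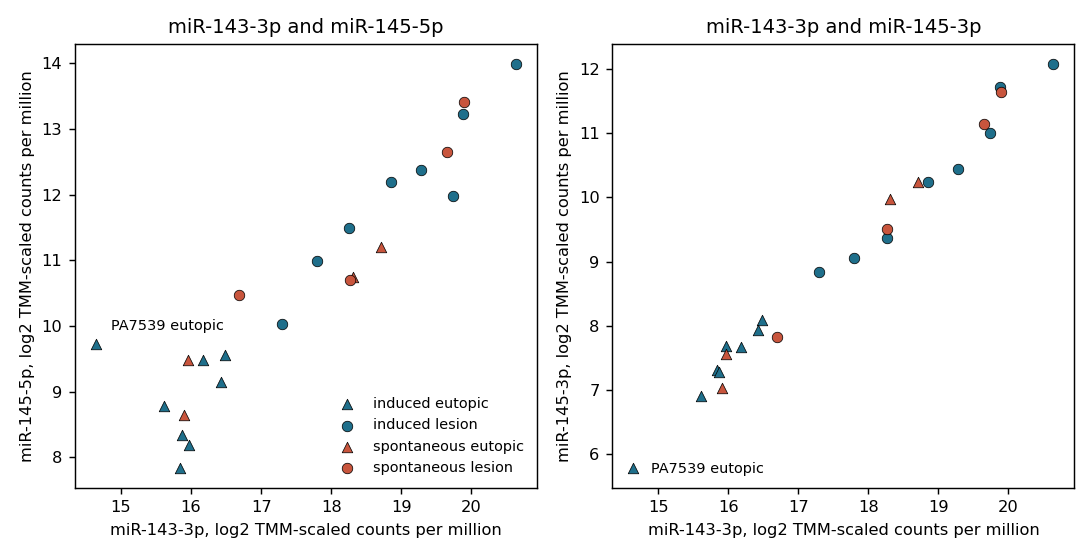
Log2 TMM-scaled CPM of miR-143-3p (x axis) against miR-145-5p on the left and miR-145-3p on the right, with a point for each of the 24 libraries, triangles for eutopic endometrium and circles for lesions. The eutopic endometrium of PA7539 lies off the band for miR-145-5p but on it for miR-145-3p, and r in the 8 induced eutopic endometria is −0.10 on the left and 0.99 on the right.

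Other miRNAs varied together with the members. After the mean of each of the 4 groups was taken out, the 5 miRNAs most like miR-143-3p over the 24 libraries, among 295 outside the hairpins, were miR-27b-3p (r = 0.94), miR-1-3p (0.93), miR-28-5p (0.92), miR-133a-3p (0.87) and miR-23b-3p (0.85). The median r of the 295 was −0.03. miR-1 and miR-133a are known for their abundance in muscle. For miR-145-5p they were miR-28-3p (0.94), miR-133a-3p (0.90), miR-28-5p (0.85), miR-125a-5p (0.84) and miR-125b-2-3p (0.84). These values describe the libraries and carry no test. Among the members themselves, miR-143-3p was most like miR-145-3p (0.99) and miR-143-5p (0.95), whereas miR-145-5p (0.81) came at position 11.

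With TMM, most miRNAs outside the hairpins that were listed for smooth muscle were also higher in induced lesions. They were listed as known to act on smooth muscle, and the list is not confined to miRNAs abundant in muscle. The list was chosen with earlier results of these data known, so its counts are a description and not independent support. Of 16 miRNAs listed for their part in the smooth muscle phenotype, 14 were higher in induced lesions and none was lower, where 20.7% of all 507 miRNAs were called higher. Their median log2 fold change was 1.66 beside −0.14 for all miRNAs. miR-133b was higher by 5.78, miR-490-3p by 5.52, miR-1-3p by 5.48 and miR-133a-3p by 5.12. miR-29c-3p, which targets collagen transcripts, was higher by 2.23. miR-31-5p (−0.53) and miR-204-5p (0.04) did not pass. With library totals 7 of the 16 passed as higher, where 6.51% of all miRNAs did, and their median was 0.68 beside −1.10 for all. Among those that did not, miR-26a-5p (−0.13), miR-221-3p (−0.05) and miR-222-3p (−0.12) had negative values on that scaling. In spontaneous disease 15 were tested, with a median of 1.13 beside −0.09 for all miRNAs, and none was the single miRNA called there.

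Markers of other tissues differed along with the members, and their part in the results was not tested. Their lists too were chosen with earlier results of these data known. Of 7 miRNAs listed for striated muscle, 5 were tested and 4 were higher in induced lesions, where 20.7% of all 507 miRNAs were called higher. These 4, miR-1-3p, miR-133a-3p, miR-133a-5p and miR-133b, are also on the smooth muscle list. The summed level of the 5 ran from 13.0 to 118 scaled CPM in induced eutopic endometria (median 29.3) and from 48.1 to 7357 in induced lesions (median 1456). The lowest lesion was PA7254 and the highest PA7539, the same animals as for the share of miR-143-3p. In spontaneous eutopic endometria the sum was 864 in PA5655, 559 in PA6303, 19.4 in PA6627 and 8.78 in PA6762, and in their lesions 1978, 116, 70.0 and 2249. Of the defining striated markers, miR-206 and miR-208b-3p were at 0 in every eutopic endometrium and every spontaneous lesion, with 11 and 3 counts in all in the induced lesions. miR-499a-5p, encoded in a slow myosin gene, differed by 0.14 in induced disease (edgeR adjusted p = 0.775).

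Of 10 tested epithelial miRNAs of 11 listed, among them the miR-200 family, 10 were lower in induced lesions, where 23.1% of all 507 miRNAs were called lower, and their median log2 fold change was −2.02. Their sum was 9173 to 23948 scaled CPM in induced eutopic endometria and 608 to 9443 in induced lesions. In spontaneous disease their median was −3.50, and their sums were 7861 to 16897 in eutopic endometria and 338 to 3146 in lesions. None was the single miRNA called there with TMM, but with library totals 8 of the 10 were called lower, out of 14 calls (2.89% of all 485 miRNAs). Of 12 fibroblast and stromal miRNAs, 4 were higher and 1 was lower in induced lesions (median 0.27). Of all 507 miRNAs, 20.7% were called higher and 23.1% lower. The 4 were miR-125b-5p, miR-100-5p, miR-99a-5p and miR-152-3p, and the lower one was miR-199b-5p. The summed level of the 12 overlapped between the tissues. With library totals 3 of these 12 were higher and 7 lower, where 6.51% of all miRNAs were called higher and 58% lower.

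Of the miRNAs listed for endothelium 2 of 2 were higher in induced lesions with TMM and 0 with library totals, and of those listed for red cells 4 of 4 and 3. Of all 507 miRNAs, 20.7% were called higher with TMM and 6.51% with library totals. The red cell sum was 282 to 1578 scaled CPM in induced eutopic endometria and 960 to 32585 in induced lesions. Of 6 leukocyte miRNAs, miR-142-5p (1.53) and miR-223-3p (3.07) passed as higher in induced lesions, and the others did not pass, with miR-342-3p at −0.32, miR-155-5p at 0.47 and miR-142-3p at 0.97 among them. With library totals 1 was higher and 1 lower, where 58% of all 507 miRNAs were called lower.

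**Figure D5:**
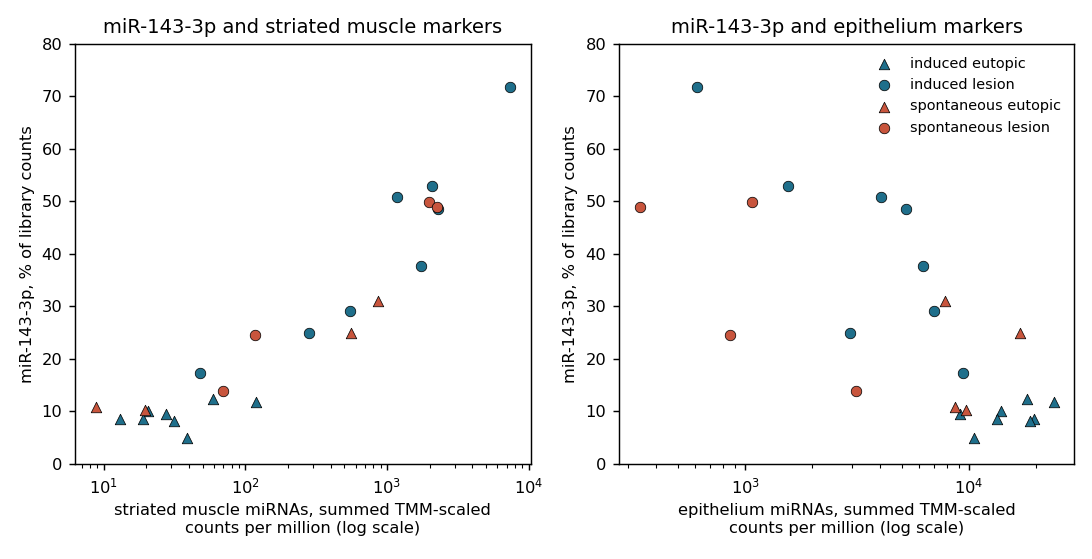
Share of miR-143-3p (y axis, percent of library counts) against the summed TMM-scaled level of 5 striated muscle miRNAs on the left and 10 epithelial miRNAs on the right (log x axes, CPM), with a point for each of the 24 libraries. Eutopic endometria PA5655 and PA6303, at 31.0% and 24.9%, lie with the lesions on the muscle axis at 864 and 559, and the lesion with 71.7% has the highest muscle sum at 7357. The scaling raises the sums where miR-143-3p takes much of a library, so the axes are not independent.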

How the data were processed

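Small RNA libraries (Illumina TruSeq small RNA) were made by the authors from total RNA of lesion and eutopic endometrium. Reads were trimmed with Trim Galore 0.3.3 and assigned with miRDeep2 to human miRBase miRNAs, and the authors deposited the raw count of each mature miRNA and precursor in every library, which they tested with the robust variant of edgeR 3.22.5. How reads matching several miRNAs were handled is not given in the sources used here. Groups came from the sample labels. The treatment label names induction for spontaneous animals too, and was not used.

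Software was edgeR 4.0.16, DESeq2 1.42.0 and limma 3.58.1 under R 4.3.3. Of the 2888 rows, 168 names had several precursors, and the precursor with the highest total stood for each. miRNAs reaching 2 CPM in 2 or more of the compared libraries were fitted by edgeR's robust quasi-likelihood model with TMM factors, only the compared libraries and the animal as a block within animals. The threshold was a Benjamini-Hochberg adjusted p of 0.05. Intervals are 95% intervals from the model's degrees of freedom. Count ratios used a prior count of 0.5, and scaled log2 CPM a prior count of 1. Shares and ratios were compared by exact sign-flip tests within pairs and exact permutation tests between groups, all two-sided. The fits were checked on simulated data with known changes. Animals, not libraries, are the replicates.

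Lesion and eutopic endometrium were paired by the animal identifier. How far each tissue lay from its group mean correlated within animals at −0.14 to 0.48 (median 0.18). The members and lists were chosen with earlier results of these data known. Besides the 4 members, the named miRNAs are the 5 with the most similar pattern, the listed miRNAs with examples, and those with the steadiest ratios, which were picked after the values were seen. Alternatives were DESeq2 size factors, library totals, TMM without the members, no filter, filterByExpr, summed precursors, edgeR-robust, DESeq2, no replicate block and leaving out each animal.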

Additional observations from a re-analysis of the deposited data

Results flagged for a closer look

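The eutopic endometrium of PA7539 lay far from the other 7 induced eutopic endometria in 3 ratios: the log2 ratio of miR-143-3p to miR-143-5p was 10.43, that of miR-145-5p to miR-145-3p was 3.93 and that of miR-143-3p to miR-145-5p was 4.92. Its gap to the nearest library was large for the range of the group by Dixon's criterion. In all, 32 groups of values were examined this way, and chance marks about 1 in 20. These ratios share members and come from 1 library, so they are not separate observations.

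The change of the log2 share of miR-143-5p from eutopic endometrium to lesion was smaller in spontaneous than in induced animals by 1.11 (difference −1.11, two-sided exact permutation p = 0.0364, unadjusted, 1 of 24 tests of shares). The fitted test of the same difference on scaled counts did not pass (−1.54, edgeR adjusted p = 0.956).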

How the results depend on the processing

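In the induced and the combined comparison all 4 members kept direction and call under every alternative and with each animal left out. The cause of the changes below was not tested. In the spontaneous pairs, no filter gave calls for miR-143-3p (1.24) and miR-145-5p (1.69), and miR-145-5p was also called by edgeR-robust (1.75) and DESeq2 (1.78). The number of miRNAs called there was 1, against 0 with DESeq2 size factors, TMM without the members, filterByExpr or summed precursors and when any animal was left out, 14 with library totals, 68 with no filter and 45 with either other model. Without the replicate block it was 0, and the miR-143-3p estimates were 3.35 in induced and 1.33 in spontaneous pairs, and no member's call changed without the pairing. For the difference between diseases both other models called 3. For spontaneous against induced lesions edgeR-robust called 7 and DESeq2 3, and miR-145-3p turned to 0.10 with edgeR-robust. With animals left out, that comparison ran from −0.62 to 0.15 for miR-143-3p, −0.82 to 0.32 for miR-145-5p and −0.66 to 0.27 for miR-145-3p.

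For the eutopic endometria edgeR-robust called 11 (miR-143-3p 1.63, miR-145-3p 1.72) and DESeq2 4 (1.82 and 1.87). With animals left out the number called was 0 to 8, and the estimates were 1.21 to 2.09 for miR-143-3p, 0.78 to 1.48 for miR-143-5p and 1.29 to 2.17 for miR-145-3p. The share of miR-143-3p there differed by 0.65 to 1.18. The difference in the share of miR-143-5p was −1.49 of the counts other than the members and −1.48 of those other than miR-143-3p, past the threshold in neither, and −1.38 to −0.81 with animals left out. The ratio of miR-145-5p to miR-145-3p differed by 0.18 to 0.46 over 12 animals, and that of miR-143-3p to miR-145-5p by −0.34 to −0.084 over 12 and −0.31 to 0.062 over induced animals. In eutopic endometrium of 12 animals r was 0.41 with shares and 0.54 per counts of other miRNAs. There r was −0.084 without the 2 farthest animals and 0.89 without PA7539. In the 8 induced animals it was 0.56 without the 2 farthest, 0.69 without PA7539 and 0.99 with miR-145-3p (both chosen after seeing the data). For the differences in the 8 induced animals r was 0.57 with shares and 0.84 per counts of other miRNAs. Depth limits mainly miR-143-5p, with 89 counts in its lowest library.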
